A study of Arabidopsis thaliana with 36 samples.

Results

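The endodermis is the innermost layer of the ground tissue of the root, and it was described here by its transcripts on standard medium. The 3 arrays of sorted endodermis and quiescent centre cells on standard medium were compared with the 15 standard-medium arrays of 5 other root populations, across all probe sets. These are 18 of the 36 arrays of a study of Arabidopsis thaliana (ecotype Columbia), which asked how cell identity along the root radius shapes the response to salt. Roots of seedlings 6 days old were digested to protoplasts, GFP-positive cells were sorted, and RNA was amplified in 2 cycles for ATH1 arrays. Each population came from 1 GFP reporter line: SCR::GFP for endodermis with quiescent centre, WER::GFP for epidermis with lateral root cap, PET111 for the columella root cap, CORTEX for cortex, WOL::GFP for stele and S32 for protophloem. All these groups carried a GFP reporter and were protoplasted and sorted. The other 18 arrays hold the same 6 populations after 1 h on 140 mM NaCl, and are used only where salt is named. SCR::GFP marks the quiescent centre as well, so the signal of the 2 cell types cannot be separated. In such sorted bulk RNA, fewer cells of a type and less RNA per cell cannot be told apart.

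The endodermis surrounds the vascular tissue and controls which solutes pass between soil and stele. Its cells build the Casparian strip, a belt of lignin in the wall that seals the space between cells, and later coat themselves with suberin. Lignin is made from monolignols, which peroxidases and laccases oxidise, and dirigent proteins help to position the polymer. The layer is specified by the transcription factors SHORT-ROOT and SCARECROW together with zinc finger proteins of the BIRD family.

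Several arrays stood apart. Stele replicate 3 held the 15 leading endodermis genes at a median of 9.74% of their endodermis mean (lowest 2.68%, highest 15.4%), against 2.47% in stele replicate 1 and 1.80% in stele replicate 2. Its summed signal of the 2 measured epidermis markers was 2213, against 202 and 212 in the other stele arrays and 859 to 912 in epidermis. Endodermis replicate 3 had more signal of those markers than its own replicates, with EXPA7 at 220 against 33.1 and 81.0. It correlated with replicates 1 and 2 at 0.951 and 0.948 on the log2 scale, and these correlated at 0.978. The GAPDH control's 5' to 3' ratio, a measure of how complete the copied transcripts were, was 0.183 ± 0.0315 (SD, n = 3) in endodermis, 1.52 ± 0.163 in epidermis and 0.0499 ± 0.0318 in protophloem. It was 0.173 ± 0.112 in columella, 0.444 ± 0.0596 in cortex and 0.239 ± 0.0124 in stele. Separate plantings are not stated for the replicates, and p-values therefore cover only array-to-array spread that may be technical.

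Against the mean of the other 5 populations, 2560 of 16740 probe sets tested were higher in endodermis (15.3%) and 2879 were lower (17.2%), by limma with Benjamini-Hochberg adjusted p under 0.05. The 2 directions differed in size, in a contrast that does not treat them alike. It sets 1 population against a mean of 5 on the log2 scale. A gene high in only 1 other population therefore shows part of its fold, while one high in endodermis alone keeps all of it. Among probe sets called higher, 1668 differed at least 2-fold, 516 at least 4-fold and 183 at least 8-fold. Among those called lower, 942 differed at least 2-fold, 81 at least 4-fold and 6 at least 8-fold. Differences are given as log2(signal + 16), so a difference of low signals is understated. The median difference of all probe sets tested was -0.11. Without stele replicate 3 the counts were 2948 higher and 3502 lower. With the 15 other arrays as 1 group, whose spread then holds the differences between populations, they were 612 and 179.

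A stricter call asked that endodermis differ from each of the 5 populations in 5 separate contrasts. It found 535 probe sets above each (3.2%) and 152 below each (0.908%), of which 266 and 97 name 1 gene. By the arrays alone, all 3 endodermis arrays lay above all 15 others for 715 probe sets (4.27%) and below all 15 for 313 (1.87%). The margin over the next population had a median of 1.5 in the 535, and 176 exceeded the next population at least 4-fold. The margin below the lowest population had a median of -0.80 in the 152, and its greatest size was -1.79. Without stele replicate 3, 608 were above each and 183 below each. With the GAPDH ratio as a covariate, 307 were above each and 40 below each.

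By correlation of population means across probe sets, cortex (0.847) and stele (0.84) were closest to endodermis. Columella had 0.771, protophloem 0.704 and epidermis 0.686 (a description, since probe sets are not independent). The stele mean includes stele replicate 3. Correlations of single endodermis arrays ranged from 0.822 to 0.917 with stele arrays and from 0.813 to 0.87 with columella arrays, over all probe sets but controls. The number of probe sets called higher and lower in endodermis was 2862 (17.1%) and 2336 (14%) against cortex, 2443 (14.6%) and 3613 (21.6%) against stele, and 2280 (13.6%) and 3094 (18.5%) against columella. It was 3536 (21.1%) and 3171 (18.9%) against protophloem and 4437 (26.5%) and 4272 (25.5%) against epidermis. In both directions, fewer probe sets were called against columella than against stele. Among the 535 probe sets above each population, the next highest was stele for 171 (32%), cortex for 138 (25.8%), protophloem for 109 (20.4%), columella for 92 (17.2%) and epidermis for 25 (4.67%). Over all probe sets tested, these populations were the highest of the 5 for 19.7%, 17.7%, 22.3%, 19.9% and 20.3%. The lead of stele rested on stele replicate 3: without it the next highest was cortex for 148 of the 535 (27.7%), protophloem for 130 (24.3%), stele for 118 (22.1%), columella for 111 (20.7%) and epidermis for 28 (5.23%), an alternative chosen after seeing the data. The 942 probe sets at least 2-fold lower in endodermis were mostly highest in the outer populations or protophloem. Epidermis was highest for 302 of them (32.1%), protophloem for 279 (29.6%), columella for 257 (27.3%), cortex for 58 (6.16%) and stele for 46 (4.88%).

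**Figure D1:**
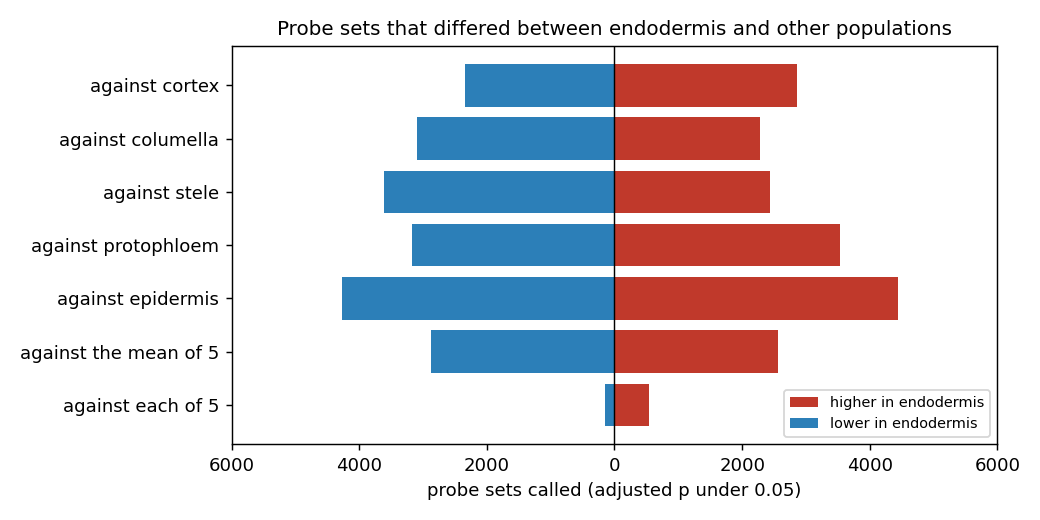
Number of probe sets called higher (red, to the right) or lower (blue, to the left) in endodermis on standard medium, of 16740 tested, against each population, their mean, and all 5 at once. The bars against epidermis are the longest, at 4437 and 4272, and the requirement to differ from each population leaves 535 and 152.

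The 2 genes given as endodermis markers were chosen with earlier results of these arrays known, so their levels are a description. AT5G01870, which encodes a lipid transfer protein, had signals of 3636, 1905 and 1397 in endodermis, and the 15 other arrays lay between 4.46 and 74.9 with a median of 20.9. All 3 endodermis arrays were above all 15, and the gene was 57.8-fold higher than the mean of the others (log2 difference 5.85 ± 0.40 SE). CCR2 (AT1G80820), a cinnamoyl-CoA reductase of monolignol synthesis, had 2681, 1862 and 2600 in endodermis. Its other arrays ranged from 0.746 to 144 with a median of 7.73, the highest being cortex replicate 3, and the difference was 6.02 ± 0.44. Most of the other arrays lay under the 40th percentile of their array (32.4 to 66.3), so these folds depend on background and on the offset of 16.

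Known genes of the layer were also looked at. Of the 9 listed for endodermis and ground tissue identity, 3 were measured by a probe set naming 1 gene. All 3 were higher in endodermis than the mean of the others (14.1% of all genes were). AT1G14580, the BIRD zinc finger protein BLUEJAY, had signals of 115, 92.5 and 275, against 1.27 to 38.9 elsewhere. It was above each population, 4.87-fold over stele (margin 2.28). Its other arrays lay near or under the 40th percentile of signal (32.4 to 66.3) that testing required on 3 arrays. It may thus have been tested through its endodermis arrays alone, and its call is no check of the label. JKD, the BIRD protein JACKDAW that acts with SCARECROW, had 174, 146 and 166 in endodermis and 283, 224 and 163 in cortex. These ranges overlapped and the difference from cortex did not pass (-0.40, adjusted p = 0.35), while JKD exceeded stele by 2.08 and epidermis by 3.31. AT4G28100 (EN7), used as an endodermis reporter gene, likewise had 365, 457 and 520 in endodermis and 363 to 417 in cortex, a difference of 0.21 (adjusted p = 0.55). The GRAS factor AT5G41920 (SCL23), a relative of SCARECROW, had 206, 239 and 322 in endodermis against 2.44 to 71.1 in the others and was above each population. Of 3 GRAS factors tested, it rose and SCL21 fell (-0.78 ± 0.18, adjusted p = 0.0023).

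The quiescent centre, marked by the same reporter, was covered by 2 of 5 listed genes. AGL42, a MADS-box gene of the quiescent centre, had 180, 140 and 138 in endodermis and was higher than the mean of the others by 0.86 ± 0.19 (adjusted p = 0.0015). It did not differ detectably from protophloem (0.12, adjusted p = 0.73) or cortex (0.18, adjusted p = 0.60). BBM, a PLETHORA-family factor of the stem cell niche, had 185, 132 and 101, and differed from the mean by 1.22 ± 0.30 (adjusted p = 0.0038). Columella held a like level (124 ± 42.8, SD, n = 3), and the difference there was 0.16 (adjusted p = 0.79). Neither gene was above each population.

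Both measured genes of Casparian strip signalling, of 11 listed, were above each population. GSO1, also named SGN3, is the receptor kinase for the peptides that report gaps in the strip, and had signals of 3386, 3370 and 5397. The other 15 arrays ranged from 18.7 to 747 with a median of 140, the highest being stele replicate 3. GSO1 exceeded cortex 7.79-fold (margin 2.96) and the mean of the others by 4.66 ± 0.34 (adjusted p = 1.0e-08). AT1G61590 (SGN1), the kinase that relays this signal, had 4954, 5206 and 4485 in endodermis. Elsewhere it ranged from 7.875 to 473, again highest in stele replicate 3, and it was 24.2-fold above the stele mean on the log2 scale (margin 4.60) with a difference of 5.81 ± 0.35 from the mean (adjusted p = 1.1e-09).

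Dirigent-like proteins, which guide the coupling of phenolic radicals, were mostly higher in endodermis. Of 9 members tested, of 15 measured and 25 listed, 7 were higher than the mean of the others and 0 lower, with a median difference of 2.33. Of these members, 4 were above each population. All genes with 1 probe set chosen had 1298 higher and 1641 lower of 9234, with a median of -0.13. AT2G21100 had signals of 4878, 4555 and 6904 against 8.37 to 481 elsewhere, a difference of 6.03 ± 0.30 (adjusted p = 1.7e-10). AT2G39430 had 7093, 5567 and 7743 against 32.6 to 829, and its next population was protophloem at a margin of 4.17. AT4G11190 had 1388, 929 and 1284 and exceeded stele by 2.71. AT4G13580, named after its values were seen, had a mean of 11318 ± 552 (SD, n = 3) in endodermis and 1481 ± 1184 in stele. AT1G55210 rose against the mean (1.83 ± 0.17), but its margin of 0.44 over stele did not pass (adjusted p = 0.12). With the 15 other arrays as 1 group, 5 members were higher. AT3G58090 and AT1G58170 had differences of -0.00062 and 0.085 and did not pass.

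Class III peroxidases, a large family of wall enzymes, had members in both directions. Of 38 members tested, of 55 measured and 73 listed, 16 were higher (42.1%), 6 were lower (15.8%) and 10 were above each population, with a median difference of 0.36. Over all genes 14.1% were higher and 17.8% lower, so the share of lower members was near that of all genes. Against cortex alone 16 were higher and 7 lower (median 0.81), and against stele alone 13 were higher and 5 lower (median 0.022). AT1G44970 (PER9), AT4G11290 (PER39) and AT5G66390 (PER72) are peroxidases known to act together in Casparian strip lignification, and all 3 were above each population. AT4G11290 had signals of 5980, 6970 and 6841 in endodermis. The other arrays ranged from 3.75 to 2008 with a median of 196, and the highest of them, stele replicate 3, stood apart from 247 and 289 in stele replicates 1 and 2. The difference from the mean was 5.44 ± 0.44 (adjusted p = 2.9e-08). AT5G66390 had 9440 ± 1227 (SD, n = 3) in endodermis and 881 ± 814 in stele, the next population (margin 3.77). AT1G44970 had 4844 ± 1639 and 562 ± 692 in stele (margin 3.74). Both of these were named after their values were seen.

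Further peroxidases above each population included Prx37 (AT4G08770) with 1427, 1520 and 1454, AT4G16270 with 817, 697 and 920, and AT4G36430 with 748, 663 and 332. Their margins over stele were 2.65, 2.85 and 3.33. AT5G39580 was high in both ground tissue layers, with 2353 ± 662 in endodermis and 1207 ± 987 in cortex, where the difference did not pass (1.36, adjusted p = 0.054). AT5G64120 was higher than the mean of the others by 1.19 but lower than in cortex by 1.94 (adjusted p = 0.00017). Of the 6 peroxidases lower in endodermis, 4 were highest in epidermis or columella and 2 in stele. AT2G43480 fell by 2.12 against the mean and had 1594 ± 510 in columella, and AT2G18980, at 5116 ± 322 in epidermis, fell by 2.12 (adjusted p = 0.047). Without stele replicate 3, 17 members were higher and 6 lower, and with the 15 other arrays as 1 group 11 and 0. The peroxidase and dirigent lists were drawn up after values of single members had been seen.

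**Figure D2:**
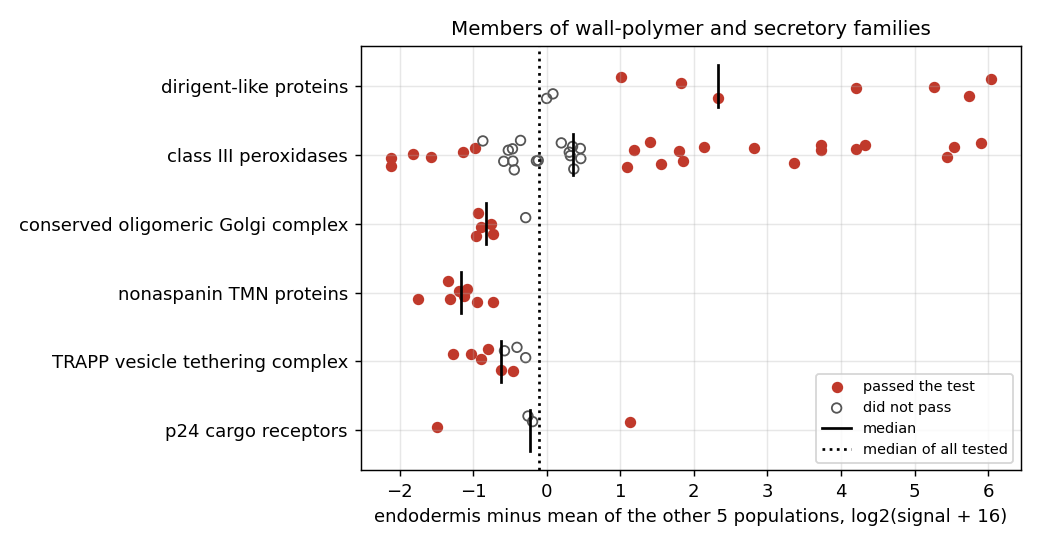
Difference between endodermis and the mean of the other 5 populations on standard medium, in log2(signal + 16), for each tested member of 6 families (filled points passed at adjusted p under 0.05, open points did not; vertical placement within a family is random). Dirigent-like members reach 6.03 and 16 peroxidases lie on the right among those that passed, while each of the 8 nonaspanins lies on the left.

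Few genes of monolignol supply were measured. Besides CCR2, which was chosen with earlier results of these arrays known, only 1 other of the 15 listed for lignin precursor synthesis was measured. This was HCT, an acyltransferase of the pathway. Its signals were 2947, 3683 and 6437 against 142 to 2127 elsewhere, and it exceeded stele 3.02-fold (margin 1.60). UGT72E3 and BGLU46 were named for a small adjusted p within their families, so they do not stand for monolignol genes as a set. UGT72E3, a glucosyltransferase that acts on monolignols, had 1462, 1492 and 3504. The others ranged from 3.96 to 308 with a median of 26.2, and the margin over cortex was 3.50. BGLU46, a beta-glucosidase of monolignol glucosides, had 1938, 1601 and 1851 against 18.2 to 1052, with a margin of 1.27 over protophloem. Among UDP-glucosyltransferases as a family, 11 of 33 tested were higher than the mean of the others (33.3%, against 14.1% of all genes) and 0 lower, with a median of 0.35. Against cortex alone 3 were higher and 6 lower (median -0.13), and against columella 10 were higher and 9 lower. In the family, 2 were above each population, UGT72E3 and UGT71C3 (2.43 ± 0.19). With the 15 other arrays as 1 group, 2 were higher. Among beta-glucosidases 2 of 10 were higher and 3 lower.

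Enzymes that modify wall polysaccharides are given by family, beside 14.1% higher and 17.8% lower over all genes. Trichome birefringence-like proteins, a family whose members acetylate wall polysaccharides, had 5 of 18 higher (27.8%) and 2 lower (11.1%). TBL30 led with 1543, 1419 and 2435 against 23.8 to 388 elsewhere (4.42 ± 0.38, adjusted p = 5.3e-08), and TBL19 followed with 469, 510 and 677 against 9.33 to 193 (3.24 ± 0.22). XTH16, of the enzymes that cut and rejoin xyloglucan, had 1270, 1084 and 576 against 1.09 to 186 and exceeded stele 6.06-fold. Of 7 such enzymes tested, 2 were higher and 0 lower. Expansins, which loosen walls, had 0 higher and 4 lower of 10, and EXPA9 (-2.68 ± 0.25) and EXPB1 (-2.49 ± 0.21) fell most, both being highest in epidermis, and none passed with the 15 other arrays as 1 group. Glycosyl hydrolase family 9, the endoglucanases, had 1 higher and 6 lower of 11, and cellulose synthases with their relatives 0 higher and 3 lower of 7.

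Receptor kinases and transcription factors of other families stood among the 15 genes with the largest margins over the next population. B120 (AT4G21390), an S-locus lectin receptor kinase, had 1615, 1312 and 3060 against 1.31 to 172 elsewhere (margin 4.49). AT5G53320, a leucine-rich repeat kinase, had 655, 587 and 1323 against 0.571 to 113 (margin 4.28). AT1G03920, a kinase of the NDR group, had 5163, 3972 and 6286 against 38.6 to 501, and its next population was columella (margin 4.45).

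The basic helix-loop-helix gene B70 (AT4G21340) had signals of 1059, 1028 and 1657. The 15 other arrays ranged from 1.85 to 99.5 with a median of 5.61, and the difference was 5.67 ± 0.31 (adjusted p = 3.9e-10). AT4G05170, of the same class, had 2752, 2764 and 4528 against 18.2 to 388 (5.04 ± 0.30). In the symbol-defined list of this class, which holds neither, 1 of 5 was higher and 1 lower. The bZIP factor bZIP58 was also above each population, with 128, 94.7 and 313 against 4.43 to 52.0.

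The other leading genes were AT4G02090, AT4G24130, AT1G54540, AT4G17215 and AT5G51680. AT4G02090 had the largest difference of the 15, at 6.30 ± 0.49, with 8260, 6631 and 8454 in endodermis, 170 and 183 in stele replicates 1 and 2, and 1013 in stele replicate 3. AT4G24130 had 1291, 1226 and 2070, and AT1G54540 had 784, 603 and 1229, against at most 117 and 88.2 on any other array. AT4G17215 had 5056, 4136 and 5677 against at most 762, and AT5G51680 had 1926, 2040 and 3174 against at most 277. The next population was stele for 12 of the 15 genes, and cortex, protophloem and columella for 1 each. Without stele replicate 3 it was stele for 4, protophloem for 7, columella for 2, and cortex and epidermis for 1 each.

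**Figure D3:**
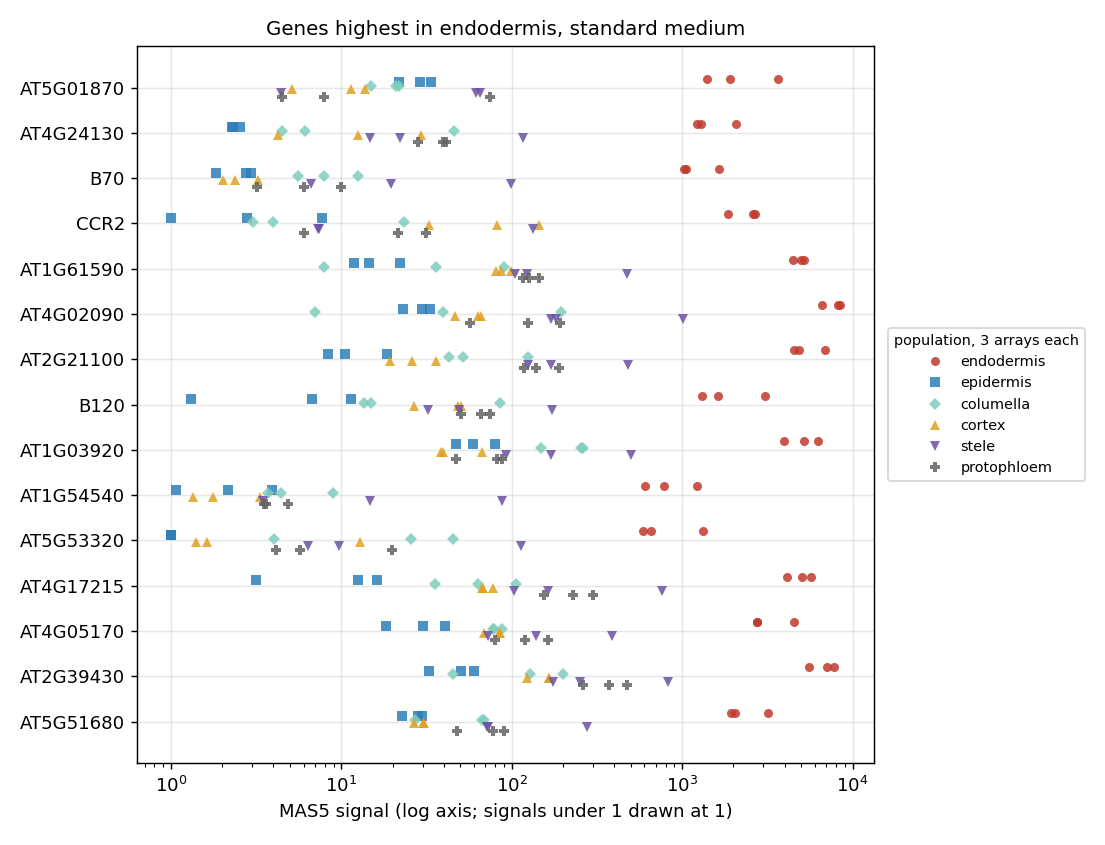
MAS5 signal on a log axis for the 15 genes with the largest margin of endodermis over the next population, 1 point per array, 3 arrays for each of 6 populations on standard medium. The 3 endodermis arrays lie to the right of all 15 others for every gene shown, and stele replicate 3 is often the closest, as at 1013 in AT4G02090.

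Several lists of vesicle traffic genes were drawn up after single members had been seen among the genes below each population, so their direction is not independent of that choice. All 8 tested of the nonaspanins (12 listed), membrane proteins of the Golgi and endosomes, were lower, where 17.8% of all genes were, with a median of -1.16 and 4 below each population. AT4G12650 had signals of 893, 939 and 1208 against 1778 to 3361 elsewhere, so the groups did not overlap, and it fell by 1.31 (adjusted p = 4.0e-07). AT1G14670 had 1033, 914 and 1344 against 1759 to 2898 (-1.08 ± 0.14), and AT5G37310 had 175, 178 and 226 against 293 to 1338 (-1.34 ± 0.18). AT2G24170 had the largest fall (-1.75 ± 0.26), but its range of 189 to 362 overlapped the others, and its margin of -0.46 was against protophloem.

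The conserved oligomeric Golgi complex, which tethers vesicles at the Golgi, had 5 of 6 tested subunits lower (median -0.82), 3 of them below each population. AT1G31780 (COG6) had 403, 414 and 491 against 702 to 1173, a difference of -0.94 ± 0.15. AT5G16300 (COG1) had 307, 273 and 270 against 439 to 664, and AT1G67930 (COG5) had 308, 323 and 332 against 438 to 652. AT1G73430 (COG3) had a difference of -0.29 and did not pass (adjusted p = 0.25). TRAPP, a second tethering complex, had 6 of 9 tested subunits lower (median -0.63) and 3 below each. AT5G54750, its subunit TRAPPC3, had 882, 978 and 689 against 1170 to 2236 (-1.03 ± 0.14). AT5G02280 (TRAPPC4) had 309, 492 and 223 against 426 to 1218, so the groups overlapped, and fell by 1.28.

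Other secretory genes were less uniform. Of p24 cargo receptors, 1 of 4 tested was lower and 1 higher: AT1G57620 fell by 1.5 and AT1G26690 rose by 1.13. The PRA1 family of small Golgi and endosome membrane proteins had 4 of 7 lower and 1 higher, and the exception, PRA1.G2, was above each population at 790, 556 and 1112 against 45.4 to 172. SEC-named proteins had 3 of 8 lower, SEC22, SEC5A and SEC15A. VPS vacuolar sorting proteins had 2 of 8 higher and 1 lower. Against single populations, 4 of 8 nonaspanins and 3 of 6 Golgi complex subunits were lower than in protophloem, and 3 of 9 TRAPP subunits were lower than in columella. Without stele replicate 3, 8 nonaspanins, 5 Golgi complex subunits and 8 TRAPP subunits were lower, and with the 15 other arrays as 1 group these counts were 4, 3 and 3.

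The 10 genes with the largest margin below the lowest other population were of mixed function. AT3G06035 had signals of 273, 226 and 238 against 540 to 4274 elsewhere, and lay 2.95-fold below columella, the lowest of the others (margin -1.56). GH9C2, an endoglucanase, had 108, 108 and 160 against 314 to 1456 and lay 2.89-fold below stele. AT1G04680, a pectate lyase-like protein, had 371, 344 and 265 against 922 to 2529, 2.82-fold below protophloem. AT5G38460, a glucosyltransferase of N-glycan assembly, had 94.1, 99.4 and 65.6 against 137 to 386. The leucine-rich repeat protein AT5G61240 had 561, 477 and 273 against 786 to 1582. AT1G15490, AT3G06890, AT1G71070, AT1G68490 and AT5G59410 completed the 10, with margins of -1.31 to -1.09. All 3 endodermis arrays lay below all 15 others in these 10 genes, as the rule that chose them required.

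The 5 largest negative differences included AT5G62340 and AT2G43610, genes with high signal in outer tissues. AT5G62340, a pectin methylesterase inhibitor-like protein, had 31.9, 47.6 and 118 in endodermis and 5970 ± 346 (SD, n = 3) in epidermis, and fell by 3.77 against the mean (adjusted p = 1.4e-07). AT2G43610, a chitinase-like protein, had 40.03 and 44.6 in endodermis replicates 1 and 2 and 345 in replicate 3, against 8142 ± 679 in epidermis and 4416 ± 977 in columella. AT5G10130 had 2.72, 21.3 and 309, and sks15, a relative of the SKU5 multicopper oxidase-like proteins, had 13.2, 3.59 and 200. In these 3 genes replicate 3 was far above replicates 1 and 2, as it was for EXPA7. The part of outer cells in this was not tested. AT1G05280 had 8.37, 3.68 and 44.8 and was the only one of the 5 below each population.

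**Figure D4:**
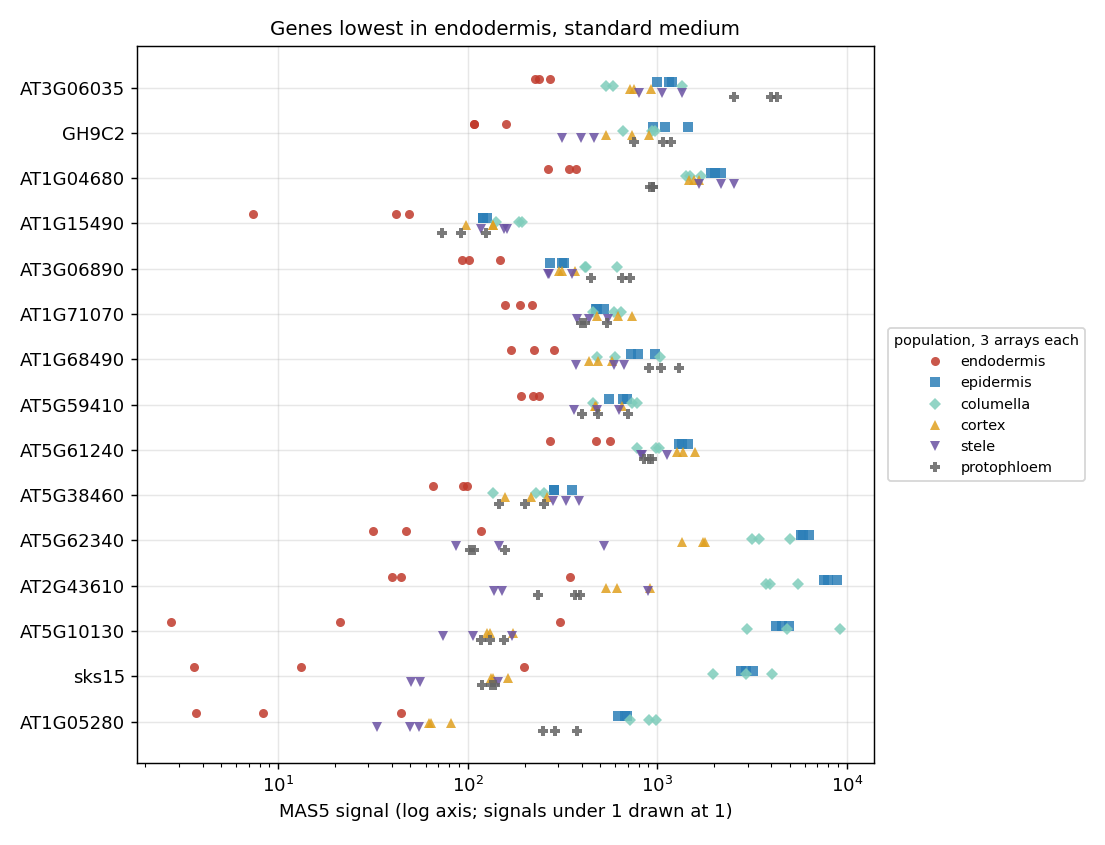
MAS5 signal on a log axis, 1 point per array on standard medium, for the 10 genes furthest below the lowest other population (upper 10 rows, AT3G06035 to AT5G38460) and the 5 with the largest fall against the mean (lower 5 rows, AT5G62340 to AT1G05280). In the upper rows the 3 endodermis arrays lie to the left of all 15 others; in AT2G43610, AT5G10130 and sks15 endodermis replicate 3 lies far right of the other endodermis arrays.

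Tested markers of neighbouring cell types were low or did not differ from the mean of the others. The aspartyl protease gene AT1G09750, a cortex marker, had 16.7, 22.6 and 53.9 in endodermis and 3040, 2218 and 2691 in cortex. The second cortex marker measured, AT1G62500 (CO2), did not pass the filter on low signals and was not tested. It had 16.4 ± 7.87 (SD, n = 3) in cortex, 13.2 ± 8.23 in endodermis and 37.7 ± 16.5 in protophloem, so only AT1G09750 marked cortex here. The 2 measured epidermis markers (of 10 listed), EXPA7 and EXPA18, summed to 84.5 to 397 in endodermis, and those of stele (LHW and PHV, of 8 listed) to 381 to 564 in endodermis and 908 to 1017 in stele. None of these 4 genes passed against the mean of the others. The sum of the 2 stele markers was 205 to 287 in cortex and 214 to 287 in epidermis, both under endodermis. It was 593 to 855 in columella and 277 to 636 in protophloem. OPS, the only measured phloem marker of 7 listed, was not tested. It had 11.3 to 41.8 in endodermis, which overlapped stele (25.8 to 40.7) and protophloem (41.0 to 95.7). In 2 phloem genes outside that list, endodermis was low beside protophloem. CLE41, a peptide made in phloem, had 56.0, 42.8 and 103, and CLE26 had 5.25, 13.2 and 5.26, both far under protophloem (-5.12 and -6.59). Without protophloem, CLE26 no longer passed. Of 4 CLE peptides tested, 4 were lower than in protophloem, 2 than in columella, 1 than in cortex, and 0 than in epidermis or stele.

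Most transcripts of the plastid genome were higher in endodermis than in each population other than protophloem. Of 69 plastid-encoded genes, 55 were higher than the mean of the others and 0 lower, with a median of 1.46 and none above each population. Endodermis exceeded epidermis in 62, columella in 60, cortex in 60 and stele in 46, and was lower than protophloem in 22, with a median difference there of -0.96. psaB, a photosystem I subunit, had 7283, 7133 and 7011 in endodermis, 162 ± 22.5 (SD, n = 3) in epidermis, 4508 ± 41.0 in cortex and 9971 ± 5485 in protophloem. The ribosomal protein gene rpl14 had 3450, 2294 and 3365 and a difference of 2.67 ± 0.31. The GAPDH ratio was 1.52 in epidermis, 0.173 in columella, 0.183 in endodermis and 0.0499 in protophloem. The median plastid difference from columella was 2.28. The part in these signals of the GAPDH ratio, which differed between populations, was not tested. With that ratio as a covariate 47 genes were higher than the mean, without epidermis 38, and with the 15 other arrays as 1 group 0. Mitochondrion-encoded genes had 7 of 14 higher and 0 lower, and 3 without epidermis.

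The remaining families are listed with their counts, to be read against 14.1% higher and 17.8% lower over all genes, and in small families such counts show little. IQ-domain proteins had 4 of 12 higher and 4 lower, IQD23 and IQD28 being above each population (1.87 and 2.10) and IQD31 below each (-0.97). Serine carboxypeptidase-like proteins had 5 of 21 in each direction (23.8%) and auxin genes of the IAA, ARF and GH3 classes 3 of 10 in each. Tetraspanins had 5 of 12 higher and 1 lower, with TET8 at 5103, 4813 and 4499 against 421 to 4420. SWEET sugar transporters had 0 of 10 higher and 3 lower. Cytochrome P450s had 4 of 10 higher and 1 lower, with CYP71B28 and CYP71B29 above each population (1.76 and 2.66), 2 related genes whose probe sets may share signal. Among TON1 recruiting motif proteins, TRM21 alone passed of 10 tested, at 959, 1178 and 1700 against 67.4 to 408 (3.09 ± 0.29). Glutathione S-transferases had 2 of 12 higher (16.7%) and 3 lower (25%), shares near those of all genes.

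The salt arrays, which the standard contrast did not use, gave the same contrast a second measurement under another condition. They came from the same 6 reporter lines, so agreement between the media is not an independent replication. There, 1364 probe sets were higher in endodermis (8.15%) and 1543 lower (9.22%). Of the probe sets higher on standard medium, 1186 were also higher with salt (46.3% of the standard list, 87% of the salt list) and 5 were lower. Of those lower on standard medium, 977 were also lower with salt (33.9% and 63.3%) and 0 were higher. Of the 535 above each population, 489 were higher than the mean with salt, and of the 152 below each, 69 were lower. The 15 leading genes were all higher with salt, by 3.93 (B120) to 6.03 (AT1G61590). Of the 10 genes furthest below, 6 were lower with salt and all 10 had the same sign. The counts with salt were 6 of 9 dirigents higher, 13 of 38 peroxidases higher and 7 lower, 5 of 8 nonaspanins lower, 2 of 6 Golgi complex subunits lower and 1 of 9 TRAPP subunits lower.

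The difference of the endodermis contrast between media passed for 40 probe sets, 3 higher with salt (0.0179%) and 37 lower (0.221%), and 13 of these were among the 535. The 535 were chosen for high endodermis signal on the standard arrays, which this difference subtracts. The overlap is therefore partly set by that choice. By unadjusted p under 0.05 it passed for 1804. Of the 173 genes named by rule, XTH16 and scpl48 passed. XTH16 had 1270, 1084 and 576 in endodermis on standard medium and 42.7, 40.1 and 183 with salt, ranges that did not overlap. Its difference from the other populations went from 3.88 to 1.15.

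**Figure D5:**
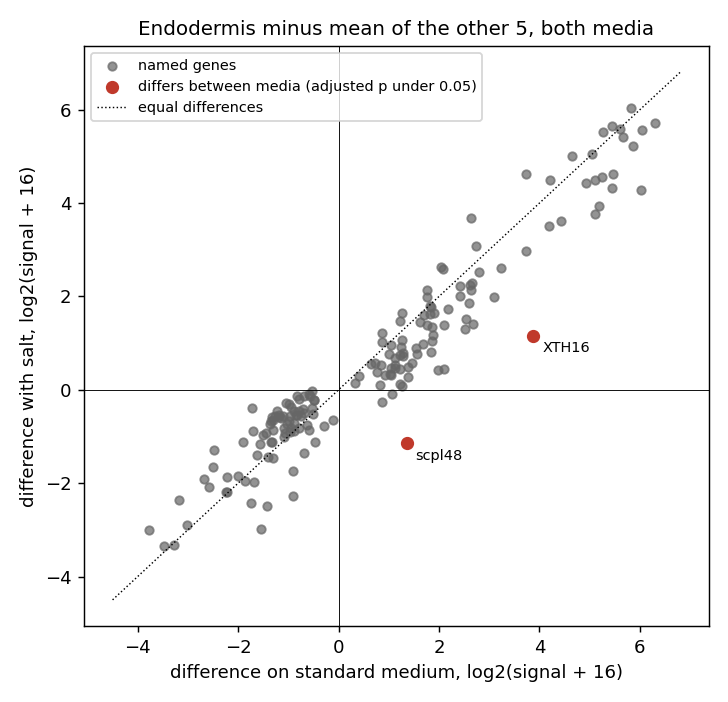
Endodermis minus the mean of the other 5 populations on standard medium (horizontal) and with salt (vertical), in log2(signal + 16), for the genes named by rule. XTH16 (3.88 and 1.15) and scpl48 (1.35 and -1.15), in red, lie furthest below the line of equal differences among genes that were higher on standard medium.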

How the data were processed

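Per the submitters' processing notes the authors computed 1 intensity per probe set and array with MAS5. Its version and scaling target are not stated, and detection calls were not used. The deposited intensities are linear, with a trimmed mean of 250.02 to 250.03 and medians of 62.1 to 95.6 on the standard-medium arrays, so these arrays had been scaled. The table of probe genes names 1 gene for 13513 of 22810 probe sets, several for 503 and none for 8730. The names were updated through the RefSeq table of TAIR10.1 (13436 matched). No coordinate or sequence was used. The 64 control probe sets were left out.

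Values were taken as log2(signal + 16). Testing required a signal over an array's own 40th percentile on 3 or more of the 18 standard arrays (16740, of which 9339 name 1 gene). The 3 endodermis arrays alone can meet this, so a list member low in all other populations was tested only if high there. A limma 3.58.1 model in R 4.3.3 with 6 group means (12 residual degrees of freedom, eBayes with trend) gave the endodermis contrast against the mean of 5 group means and against each. The salt arrays were fitted in the same way, and the difference between media on all 36 arrays. All p-values are two-sided and Benjamini-Hochberg adjusted over all probe sets tested. Array number limits the precision. In simulated arrays of 16740 probe sets, this contrast recovered 97% of 66 probe sets changed 4-fold, 50.7% of 67 changed 2-fold and 7.46% of 67 changed 1.5-fold. The simulated populations had equal means apart from these changed probe sets, which were drawn from those with higher signals. The simulation gave 106 calls, against 5439 in the real contrast, so these rates need not hold for the real data.

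Named genes were the 15 with the largest margin over the next population (called higher, no overlap with the 15 other arrays), the 10 furthest below, the 5 largest falls against the mean, up to 4 called members of each list with 3 or more tested, and all measured members of the marker, regulator, Casparian strip, lignin and quiescent centre lists. A gene's probe set was the one with the highest mean. Lists by locus without a tested member were suberin, ion transport, root cap and phloem markers, and laccases. Families by symbol without one were MYB, C2H2 zinc finger, Casparian-strip-like membrane, lipid-transfer, germin-like, defensin-like, nuclear ribosomal and small heat shock proteins, GDSL lipases, ABC, major facilitator and nitrate/peptide transporters and receptor-like kinases. Dirigent-like genes, with none by symbol, were listed by locus, and mitochondrion-encoded genes by a second set of symbols. Members and lists were chosen with earlier results of these data known. Related genes can share a probe set's signal. Summaries were made in Python 3.11.15 (pandas 2.3.3) and plots in matplotlib 3.10.9.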

Additional observations from a re-analysis of the deposited data

Results flagged for a closer look

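XTH16 and scpl48 were the 2 named genes whose endodermis contrast differed between media by the interaction term of limma fitted on all 36 arrays. For XTH16 the contrast with salt minus that on standard medium was -2.73 (SE 0.48, adjusted p = 0.014). Its endodermis signal was 976 ± 359 (SD, n = 3) on standard medium and 88.6 ± 81.8 with salt. Stele went from 142 ± 38.3 to 32.7 ± 9.05 and protophloem from 104 ± 7.93 to 22.9 ± 12.5. For scpl48, a serine carboxypeptidase-like protein, the contrast moved by -2.5 (SE 0.42, adjusted p = 0.0083). Its endodermis signal was 3151 ± 942 on standard medium and 1879 ± 159 with salt, while epidermis went from 562 ± 174 to 4525 ± 942 and cortex from 302 ± 61.7 to 2168 ± 1746.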

How the results depend on the processing

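The pseudocount, the filter on low signals, quantile normalization and robust eBayes kept all 4 counts (2560 higher, 2879 lower, 535 above each, 152 below each) within 1.5 times. Other choices moved some. With the 15 other arrays as 1 group, whose spread then includes the differences between populations, 612 were higher and 179 lower. The fit on all 36 arrays left 97 below each. The GAPDH ratio as a covariate left 307 above each and 40 below each. Fewer populations to pass gave 840 above each without cortex, 235 below each without stele and 343 below each without protophloem. Leaving out 1 array at a time gave 2050 to 2948 higher, 1892 (without endodermis replicate 1) to 3502 (without stele replicate 3) lower, 441 to 608 above each and 109 to 183 below each. SBT4.12 went to -0.016 without epidermis, AGL21 to 0.087 without columella and GSTF4 to 0.39 without protophloem, so each difference depended at least in part on that population. With its sign kept, SBT4.12 also failed to pass in 3 of 33 settings, AGL21 in 8 and GSTF4 in 2.

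The replicate block gave 2638 higher, 3033 lower, 549 above each and 159 below each. The labels' numbers were not taken to pair the arrays: 7 of 15 pairs of same-numbered deviations had r over 0.1 (range -0.177 to 0.325), and 10 of 18 arrays correlated best with their own number. Signals near background limit the folds of genes that are low elsewhere.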
